A study of Mus musculus with 15 samples.

Results

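ATF4 and 9 further genes of the integrated stress response were followed across whole livers of mice. The group was the named genes Atf4, Atf3, Atf5, Ddit3, Trib3, Chac1, Asns, Psat1, Phgdh and Sesn2, which are 10 of the 37991 genes in the count table. It was chosen by name and not by a rule on measured values, but earlier results of these data were known at the choice. Female C57BL/6 mice were used in 3 groups of 5, and each library was 1 animal. Young WT mice were wild type at 90 days, old WT mice were wild type at 600 days, and old KO mice were 600 days old and carried a germline deletion of S6K1, whose gene is Rps6kb1. No young KO group was sequenced, so genotype was compared at 600 days alone, and the KO acted in every cell type of the animal from conception. Poly(A) RNA of the whole organ was sequenced, and in such bulk tissue fewer cells of a type and less RNA per cell cannot be told apart.

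The integrated stress response starts when one of several kinases phosphorylates the translation initiation factor eIF2, in response to unfolded protein in the endoplasmic reticulum (ER), lack of amino acids, lack of heme or double-stranded RNA. Most protein synthesis then slows, while the mRNA of the transcription factor ATF4 is translated more. ATF4 binds DNA with partner proteins and turns on genes of amino acid synthesis and transport, redox balance and, under lasting stress, cell death. Since ATF4 is controlled in large part by translation, the level of its mRNA is not a measure of its protein, and the targets are the usual readout of its activity in RNA data. In liver the same genes also answer to fasting, insulin and amino acid supply. The study stained livers of these groups for CHOP, the product of Ddit3, and for BiP, the product of Hspa5, as marks of ER stress. It reported a rise of both in old WT livers that was weaker in old KO livers. Staining measures protein, while the counts here measure RNA. Whether the stained and sequenced livers are the same is not given in the sources used here, and the RNA of both genes is given below.

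ATF4 and its partners bind an element known as the C/EBP-ATF response element, with the core letters TGATGNAA. These letters were searched on both strands in the RefSeq promoters of the GRCm38.p6 build, 250 bases before to 50 bases after each start, and a member of the group was found in the table in 10 of 10 cases, with 12 promoters in all. The core was present in a promoter of 4 of the 10 genes, Atf3, Trib3, Chac1 and Asns. It was present in 1304 of all 32851 promoters, or 3.97%. The first is a count of genes and the second a count of promoters, so they are not like for like. The 10 genes were also chosen by name as genes of the response. A match of letters is not evidence of binding, and a promoter without them says nothing about the factor. The windows that hold the match are shown 5′ to 3′ on the strand of the gene, because these are 4 of the genes whose levels are described next. Capitals mark the core, which reads on the opposite strand in the first 3 and on the strand of the gene in Asns.
Atf3: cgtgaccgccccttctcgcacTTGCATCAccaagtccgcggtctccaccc
Trib3: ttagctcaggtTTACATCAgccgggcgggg
Chac1: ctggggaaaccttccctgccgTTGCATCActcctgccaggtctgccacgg
Asns: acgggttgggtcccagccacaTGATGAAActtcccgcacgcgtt
The Atf3 window is chr1:191183415-191183464 on the minus strand, and its core begins 110 bases before the start of the gene. The Trib3 window is chr2:152344028-152344057 on the minus strand, and its core begins 14 bases after the start, inside the transcribed part. The Chac1 window is chr2:119351028-119351077 on the plus strand, with the core 193 bases before the start, and the Asns window is chr6:7693210-7693253 on the minus strand, with the core 23 bases before it.

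Total counts per library ran from 21801754 to 38065359, all 15 libraries carried the labelled hepatocyte genes at high level, and none of the replicate pairs within a group agreed within sampling noise. Rps6kb1, the targeted gene, fell from 38.4 ± 4.21 CPM (read counts scaled to a common library total, SD, n = 5) in old WT to 17.0 ± 2.23 CPM in old KO livers, with no overlap between the groups (log2 fold change -1.17, SE 0.098, adjusted p = 8.54e-06, edgeR). It was therefore lower in every library labelled KO and was not at 0. Folds and adjusted p-values below come from edgeR's quasi-likelihood test over all 14258 genes that passed a filter on low counts, with Benjamini-Hochberg adjustment and a threshold of 0.05. Of the 10 genes, 9 passed the filter, and Phgdh did not.

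The 10 genes stood at very different levels. Per kilobase of annotated exon, Atf5 led with 206 ± 27.5 CPM in old WT livers, followed by Atf4 with 49.3 ± 6.94 CPM, and these did not overlap each other or any lower gene. Ddit3 at 3.65 ± 0.707, Sesn2 at 3.10 ± 0.601, Trib3 at 1.48 ± 0.368 and Atf3 at 1.16 ± 0.398 CPM per kilobase formed a middle group, in which the values of Ddit3 and Sesn2 overlapped and those of Trib3 and Atf3 overlapped. Chac1, Asns, Psat1 and Phgdh were below 0.6 CPM per kilobase on average, at 0.525, 0.258, 0.120 and 0.119. The 3 amino acid synthesis genes Asns, Psat1 and Phgdh thus had the fewest counts, with a median of 6, 13 and 6 counts per library. A value from so few counts carries a large counting error, and the folds of these genes are wide.

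Age changed 1 of the 9 tested genes, Trib3, which was lower in old WT livers, against 18.8% of all tested genes that changed with age. Genotype changed 0 of the 9, against 0.533% of all tested genes. In the age contrast the median log2 fold change over the 9 genes was -0.09, beside 0.01 over all genes, and in the genotype contrast it was -0.20, beside 0.00. In 0 of the 9 genes did the CPM of the groups fail to overlap, for age, where 11.4% of all genes separated, or for genotype, where 3.20% did. With unadjusted p-values 1 gene passed 0.05 for age and 1 for genotype by edgeR. The share of all tested genes with an unadjusted p under 0.05 was not determined. Counts by unadjusted p, here and below, thus have no background and are a description only. DESeq2 and limma voom each called 1 gene for age and 0 for genotype.

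**Figure D1:**
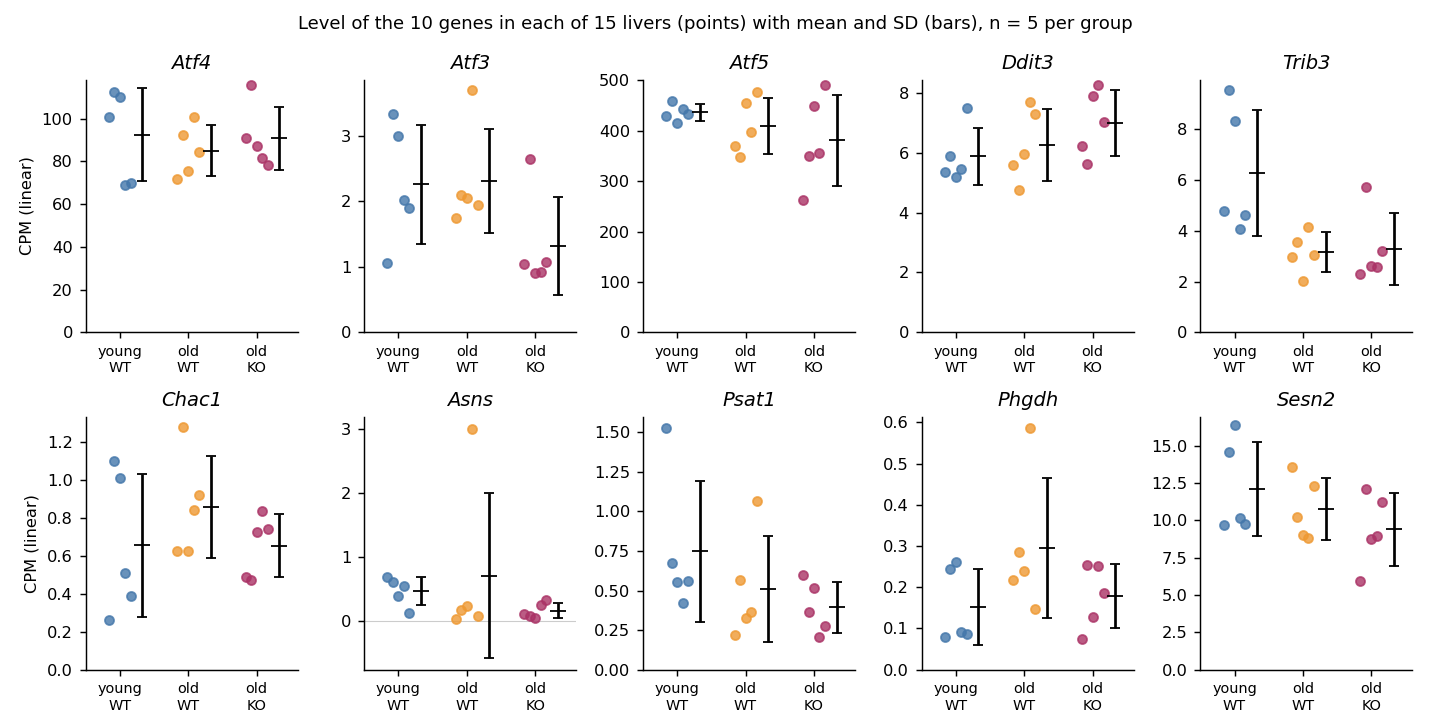
CPM of each of the 10 genes (linear axis, one panel a gene) in young WT, old WT and old KO livers, with 1 point a liver and the mean and SD (n = 5) as bars. Trib3 sits higher in young WT livers, at 4.07 to 9.56 CPM, than in old WT livers, at 2.03 to 4.14 CPM, and a single old WT liver stands far above all others in Asns at 3.01 CPM.

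Atf4 (ENSMUSG00000042406, chromosome 15, 80085614 to 80087970, plus strand, NCBIM37) encodes the transcription factor at the centre of the response. In young WT livers 1, 2, 3, 4 and 6 its level was 101, 113, 110, 68.9 and 69.9 CPM. In old WT livers 1, 4, 5, 7 and 10 it was 71.5, 92.5, 75.7, 101 and 84.6 CPM, and in old KO livers 1, 2, 4, 5 and 6 it was 90.8, 116, 87.4, 81.8 and 78.2 CPM. The 3 groups overlapped over almost their whole ranges. The mean was 92.5 ± 21.6 CPM in young WT, 85.01 ± 12.0 CPM in old WT and 90.8 ± 14.8 CPM in old KO livers (SD, n = 5 each). The log2 fold change was -0.12 for age (95% interval -0.45 to 0.20, adjusted p = 0.610, edgeR) and 0.10 for genotype (-0.23 to 0.42, adjusted p = 0.875, edgeR). A change in Atf4 mRNA outside these intervals was not seen in either contrast.

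Ddit3 (ENSMUSG00000025408, chromosome 10, 126727830 to 126733344, plus strand) encodes CHOP, a C/EBP family factor that ATF4 induces and that takes part in stress-related cell death. Its level was 5.34, 5.89, 5.18, 5.45 and 7.50 CPM in the young WT livers, in the same order as before. It was 5.59, 4.77, 5.96, 7.70 and 7.28 CPM in the old WT livers and 6.22, 5.63, 7.88, 8.26 and 7.01 CPM in the old KO livers. The means were 5.88 ± 0.947, 6.26 ± 1.21 and 6.999 ± 1.102 CPM, and the groups overlapped. Neither the age contrast (log2 fold change 0.09, 95% interval -0.23 to 0.42, adjusted p = 0.703, edgeR) nor the genotype contrast (0.16, -0.16 to 0.48, adjusted p = 0.755) passed the test. Its exons share 68 bases with Mars on the opposite strand in the annotation, and the strand setting of the counting was not given in the sources used here.

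Atf3 (ENSMUSG00000026628, chromosome 1, 192994175 to 193007219, minus strand) is a bZIP factor induced by ATF4 and by many acute stimuli. It was measured at 1.05, 3.33, 2.999, 2.02 and 1.90 CPM in young WT livers and at 1.75, 2.10, 2.06, 3.70 and 1.95 CPM in old WT livers. In old KO livers it stood at 1.05, 2.65, 0.899, 0.922 and 1.07 CPM. Old KO liver 2 lay far above the other old KO livers and inside the range of the old WT livers, while the other old KO livers lay below all old WT livers. The log2 fold change for genotype was -0.79 (95% interval -1.54 to -0.05), and the adjusted p was 0.395 (edgeR), so it did not pass. For age it was 0.03 (-0.68 to 0.74, adjusted p = 0.962, edgeR), and the sign turned without old WT liver 7 (-0.19) or young WT liver 1 (-0.16), 4 or 6 (-0.02 each). Without old KO liver 2 the contrast of old KO with young WT passed the test for Atf3, with a log2 fold change of -1.19 (adjusted p = 0.0173, edgeR), where the value with all livers was -0.76 (adjusted p = 0.127).

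Atf5 (ENSMUSG00000038539, chromosome 7, 52067627 to 52072028, minus strand), a relative of ATF4 that is also controlled by translation, was the most abundant of the 10. Its level ran from 416 to 459 CPM in young WT, from 348 to 477 CPM in old WT and from 262 to 490 CPM in old KO livers. The spread between animals, as SD over mean, was 3.74% in young WT livers, 13.4% in old WT and 23.6% in old KO. The log2 fold change was -0.09 for age (adjusted p = 0.677) and -0.10 for genotype (adjusted p = 0.838, edgeR). A stretch of 82 exon bases is shared with Nup62 and Il4i1 on the opposite strand.

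Trib3 (ENSMUSG00000032715, chromosome 2, 152163158 to 152169768, minus strand) encodes a pseudokinase that is induced by ATF4 and CHOP and binds the kinase AKT in liver. Young WT livers had 4.79, 9.56, 8.31, 4.07 and 4.61 CPM. Old WT livers had 2.97, 3.56, 2.03, 4.14 and 3.05 CPM, and old KO livers had 2.28, 5.74, 2.61, 2.56 and 3.20 CPM. Of the 5 old WT livers, 4 lay below every young WT liver, and old WT liver 7 lay above the lowest young WT liver, so the groups overlapped slightly. The mean was 6.27 ± 2.49 CPM in young WT, 3.15 ± 0.783 CPM in old WT and 3.28 ± 1.41 CPM in old KO livers. The fall with age was 1.996-fold (log2 fold change -0.997, SE 0.29, 95% interval -1.61 to -0.39, adjusted p = 0.0255, edgeR). Old KO livers were likewise lower than young WT livers (log2 fold change -0.93, SE 0.29, adjusted p = 0.0299, edgeR), a contrast in which 23.3% of all tested genes were called. That contrast uses the same young WT livers, so it is no second measurement of the young level. Genotype gave 0.07 for Trib3 (95% interval -0.56 to 0.69, adjusted p = 0.965). The age call was lost without young WT liver 2 (-0.79, adjusted p = 0.0758), young WT liver 3 (-0.86, 0.0634), old WT liver 1 (-0.98, 0.0547) or old WT liver 5 (-0.87, 0.0643). The sign stayed negative in all 15 fits that left out 1 library. Genotype turned sign for Trib3 without old KO liver 2 (-0.25) and without old WT liver 5 (-0.06). The contrast of old KO with young WT lost its call without young WT liver 2 (-0.73, 0.0868) or 3 (-0.80, 0.0734), or old KO liver 1 (-0.82, 0.0718), 4 (-0.86, 0.0728) or 5 (-0.85, 0.0723).

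Beside the age contrast, the summed level of 8 markers of T cells, B cells and leukocytes was 10.5 to 30.2 CPM in young WT and 54.2 to 110 CPM in old WT livers, and 4 of the 8 rose by edgeR and DESeq2 and 1 by limma voom. The summed level of 8 hepatocyte markers was 86234 to 130901 CPM in young WT livers, with a median of 127688 CPM. In old WT livers it was 96432 to 140042 CPM, with a median of 100721 CPM. Of these 8, 6 had a lower and 2 a higher fitted level with age. EdgeR called 1 of them lower, and DESeq2 and limma voom called 2 each. The part of either marker set in the Trib3 values was not tested.

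Chac1 (ENSMUSG00000027313, chromosome 2, 119176965 to 119180117, plus strand) encodes an enzyme that breaks down glutathione and is among the genes most induced by ATF4 in stressed cells. It was scarce, at 0.263 to 1.099 CPM in young WT, 0.625 to 1.28 CPM in old WT and 0.472 to 0.838 CPM in old KO livers. The log2 fold change was 0.38 for age (95% interval -0.36 to 1.12, adjusted p = 0.477) and -0.39 for genotype (-1.16 to 0.37, adjusted p = 0.744, edgeR). Sesn2 (ENSMUSG00000028893, chromosome 4, 132047947 to 132066416, minus strand) encodes a leucine sensor that restrains mTORC1. Its mean was 12.1 ± 3.15 CPM in young WT, 10.8 ± 2.09 CPM in old WT and 9.40 ± 2.43 CPM in old KO livers, and the ranges overlapped. Its log2 fold change was -0.17 for age (adjusted p = 0.584) and -0.20 for genotype (adjusted p = 0.773, edgeR).

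**Figure D2:**
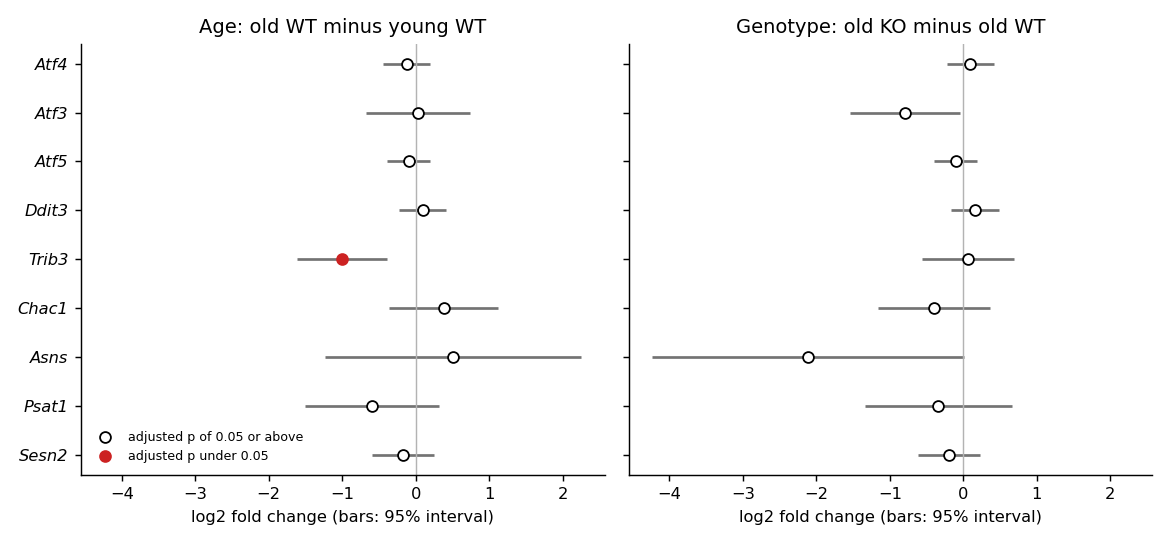
Log2 fold changes (points) with 95% intervals (bars) of the 9 tested genes for age (old WT minus young WT) and for genotype (old KO minus old WT), from edgeR. Trib3 is the filled point for age at -0.997, while no gene is filled for genotype, and the intervals of Asns are the widest.

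The remaining 3 genes make amino acids. Asns (ENSMUSG00000029752, chromosome 6, 7625169 to 7643254, minus strand) encodes asparagine synthetase. It was measured at 0.684, 0.611, 0.391, 0.542 and 0.129 CPM in young WT livers, from 26, 20, 12, 18 and 3 counts. Old WT livers gave 0.0312, 0.178, 0.239, 3.01 and 0.0735 CPM, from 1, 5, 8, 82 and 2 counts. Old KO livers gave 0.112, 0.0726, 0.0428, 0.252 and 0.325 CPM, from 3, 2, 1, 6 and 7 counts. Old WT liver 7 alone held 82 of the 196 counts of this gene in all 15 libraries, and the value of the old WT group depended on it. With that liver the log2 fold change for age was 0.51 (95% interval -1.23 to 2.25, adjusted p = 0.704), and without it the sign turned and the gene was called (-1.84, adjusted p = 0.0324, edgeR). In the same way genotype gave -2.11 with it (-4.23 to 0.00, adjusted p = 0.429) and 0.23 without it (adjusted p = 0.937). Without it, old KO also differed from young WT (-1.60, adjusted p = 0.0371), where the value with all livers was -1.61 (adjusted p = 0.269).

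Psat1 (ENSMUSG00000024640, chromosome 19, 15979168 to 16021827, minus strand) encodes a transaminase of serine synthesis. Its level was 0.422 to 1.53 CPM in young WT, 0.219 to 1.07 CPM in old WT and 0.210 to 0.599 CPM in old KO livers, from 5 to 58 counts per library. The log2 fold change was -0.59 for age (95% interval -1.50 to 0.32, adjusted p = 0.358) and -0.34 for genotype (-1.34 to 0.66, adjusted p = 0.845, edgeR). Phgdh (ENSMUSG00000053398, chromosome 3, 98117093 to 98143913, minus strand) encodes the first enzyme of that route. It had 24 counts in all young WT, 43 in all old WT and 22 in all old KO libraries. Its difference was 0.63 on the log2(CPM + 0.1) scale for age (p = 0.0952) and -0.46 for genotype (p = 0.198) by a 2-sided exact permutation test. The same exact permutation test gave 0.17 for old KO against young WT (p = 0.643), and with 5 livers against 5 its smallest possible p is 0.00794. Phgdh has 14 other near-identical stretches in the genome, the longest of 1833 bases, so its counts are uncertain, while a search of the same kind found 0 for each of the other 9 genes.

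The wider pathway was described with 7 lists of 107 genes, none of them among the 10, of which 105 were tested. Age changed 23 of the 105 (11 higher and 12 lower in old WT livers), or 21.9%, beside 18.8% of all genes, of which 9.92% were higher and 8.91% lower. Genotype changed 1 of the 105 by edgeR, 2 by DESeq2 and 0 by limma voom. An unadjusted p under 0.05 by edgeR was found for 10, with no share over all genes to set beside it. Of all tested genes, 0.112% were higher and 0.421% lower in old KO livers.

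Upstream of ATF4, 4 of 16 genes of eIF2, its kinases, its phosphatases and its exchange factor eIF2B were lower in old WT livers and 0 were higher, with a median log2 fold change of -0.15. Eif2b3, a subunit of eIF2B, fell from 13.9 ± 2.27 to 8.07 ± 1.06 CPM (log2 fold change -0.78, adjusted p = 0.000778), and Gcn1l1, the partner of the amino acid sensing kinase GCN2, fell from 62.3 ± 12.5 to 40.2 ± 1.48 CPM (-0.63, adjusted p = 0.00169). Eif2b2 (-0.39, adjusted p = 0.0271) and Eif2s1, the eIF2 subunit that the kinases phosphorylate (-0.26, adjusted p = 0.0217), fell less. Ppp1r15a, the phosphatase subunit GADD34 that ATF4 induces, stood at -0.08 for age (adjusted p = 0.791) and -0.44 for genotype (adjusted p = 0.360, edgeR). In old KO against young WT livers DESeq2 and limma voom called Ppp1r15a lower, and edgeR did not call it.

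Among 10 partners and relatives of ATF4, 3 were higher with age, namely Cebpa (0.33, adjusted p = 0.0453), Nfe2l2 (0.30, adjusted p = 0.0173) and Fos (0.83, adjusted p = 0.0429). Fos, an immediate early gene, was the only one of the 105 genes that edgeR called for genotype, with 3.54 ± 1.56 CPM in old WT and 1.27 ± 0.423 CPM in old KO livers (-1.47, adjusted p = 0.0337). Its old WT values were 3.19, 3.34, 2.53, 6.23 and 2.39 CPM and its old KO values 1.95, 1.27, 0.814, 1.05 and 1.25 CPM, with no overlap. The summed level of 9 macrophage markers was 262 to 619 CPM in old WT and 153 to 239 CPM in old KO livers, and none of the 9 was at 0 in all libraries. All 9 had a lower fitted level in old KO livers with an unadjusted p under 0.05, and 5 were called by edgeR, 7 by DESeq2 and 1 by limma voom. Their part in the Fos and Atf3 values was not tested.

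In the lists that hold the metabolic targets, the changes with age went in both directions. Of 14 genes of serine, glycine, proline and one-carbon synthesis, 3 were higher with age and 0 lower by edgeR, while DESeq2 and limma voom each called 2 higher and 1 lower and did not call Pycr1. The 3 were Shmt1 (0.40, adjusted p = 0.00904), Aldh1l2 (1.13, adjusted p = 0.0222) and Pycr1 (0.99, adjusted p = 0.0430), and Pycr1 and Aldh1l2 were below 1 CPM in mean. Mthfd2, a mitochondrial folate enzyme and a usual ATF4 target, stood at 0.14 (adjusted p = 0.761). Of 11 tested amino acid transporters, Slc1a4 was higher (0.95, adjusted p = 0.0376, not called by limma voom) while Slc43a1 (-1.38, adjusted p = 0.0210) and Slc7a5 (-0.77, adjusted p = 0.0225) were lower. Slc7a11, the cystine carrier, stood at 0.15 (adjusted p = 0.523). Of 20 cytosolic aminoacyl-tRNA synthetases, Cars rose from 14.6 ± 1.46 to 24.7 ± 3.49 CPM (0.76, adjusted p = 0.000992), and 6 fell, with Lars (-0.51, adjusted p = 0.00989) and Eprs (-0.45, adjusted p = 0.00160) the largest falls.

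Of 17 tested further stress targets of ATF4 and CHOP, 3 were higher with age and 0 lower by edgeR and limma voom, and DESeq2 called 3 higher and 1 lower. Vldlr, the very low density lipoprotein receptor, rose from 14.9 ± 5.97 to 46.5 ± 13.6 CPM (1.64, adjusted p = 0.00139), Gadd45a, a growth arrest gene, from 1.23 ± 0.350 to 2.71 ± 0.433 CPM (1.15, adjusted p = 0.0115), and Nupr1 from 0.771 ± 0.279 to 1.47 ± 0.340 CPM (0.91, adjusted p = 0.0437). The hormone genes Fgf21 (-0.50, adjusted p = 0.569) and Gdf15 (0.60, adjusted p = 0.231) and Eif4ebp1, the translation inhibitor 4E-BP1 (-0.35, adjusted p = 0.0739), did not pass for age. For genotype Fgf21 stood at -0.47 (adjusted p = 0.821), Gdf15 at -0.27 (adjusted p = 0.825), Eif4ebp1 at 0.13 (adjusted p = 0.784), Mthfd2 at -0.30 (adjusted p = 0.754) and Slc7a11 at -0.27 (adjusted p = 0.538, edgeR). Leaving out 1 of the 15 libraries took away the age call of Cebpa, Fos, Slc1a4 and Nupr1 in 8 fits each, of Pycr1 in 11, of Eif2b2, Eif2s1, Aldh1l2 and Slc43a1 in 3 each and of Slc7a5 in 2, and the genotype call of Fos in 7.

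The other branches of the unfolded protein response, ATF6 and IRE1, were described with 17 genes. By edgeR, DESeq2 and limma voom 0 of the 17 were called for age and 0 for genotype, while 3 and 4 had an unadjusted p under 0.05 by edgeR. Hspa5, which encodes the ER chaperone BiP, stood at 567 ± 154 CPM in young WT, 460 ± 104 CPM in old WT and 612 ± 210 CPM in old KO livers. Its log2 fold change was -0.30 for age (adjusted p = 0.386) and 0.41 for genotype (adjusted p = 0.521, edgeR), within the spread between livers. The median log2 fold change of the 17 was 0.02 for age, with 9 higher and 8 lower. For genotype it was 0.22, with 15 higher and 2 lower in old KO livers. In old KO against young WT livers 16 were higher and 1 lower, with a median of 0.35, beside -0.01 over all genes. In that contrast edgeR, DESeq2 and limma voom each called 3 of the 17 higher, or 17.6%, beside 23.3% of all genes called by edgeR.

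**Figure D3:**
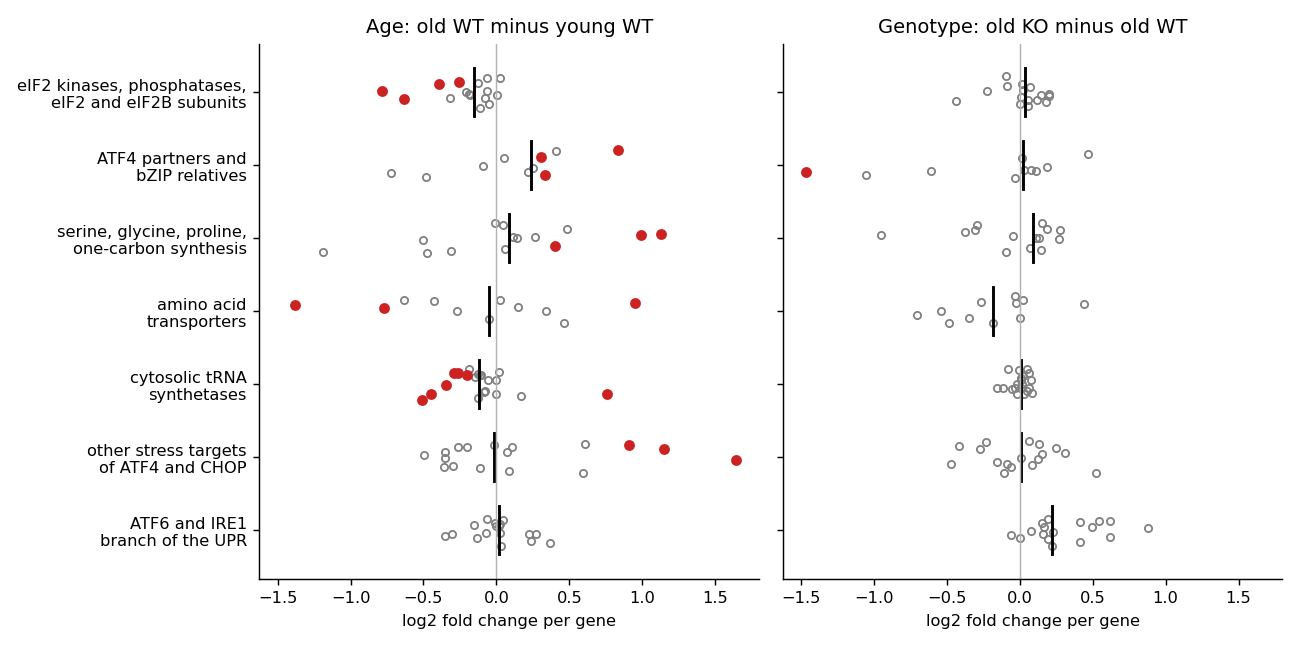
Log2 fold change of each tested gene (points, spread vertically for legibility) in 7 lists around the integrated stress response, for age and for genotype, with the median of each list as a black bar and filled points where the adjusted p was under 0.05. For age 23 of the 105 genes are filled, 11 to the right of 0 and 12 to the left, and for genotype only Fos is filled, at -1.47.

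Whether the 9 tested genes varied together between animals of 1 group was examined with the group means removed, over 36 pairs and 15 livers. The correlation of log2 CPM was 0.79 for Atf4 with Trib3 (rho 0.72), 0.80 for Atf3 with Trib3 (rho 0.52) and 0.68 for Trib3 with Sesn2 (rho 0.68). The permutation p-values of r were 0.00288, 0.00347 and 0.0218, and after adjustment over the 36 pairs they were 0.0625, 0.0625 and 0.261. For rho the p-values were 0.0128, 0.0641 and 0.0178, adjusted to 0.320, 0.462 and 0.320. None of the 36 pairs passed the threshold after adjustment, and 3 had an unadjusted p under 0.05. Without the 2 livers farthest from the median of the first gene, r was 0.76, 0.66 and 0.57. Atf4 and Ddit3 had the lowest r of the 36 pairs, -0.31 (rho -0.33, permutation p = 0.279 and 0.258, adjusted 0.718 and 0.759, and r = -0.24 without the 2 farthest livers).

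**Figure D4:**
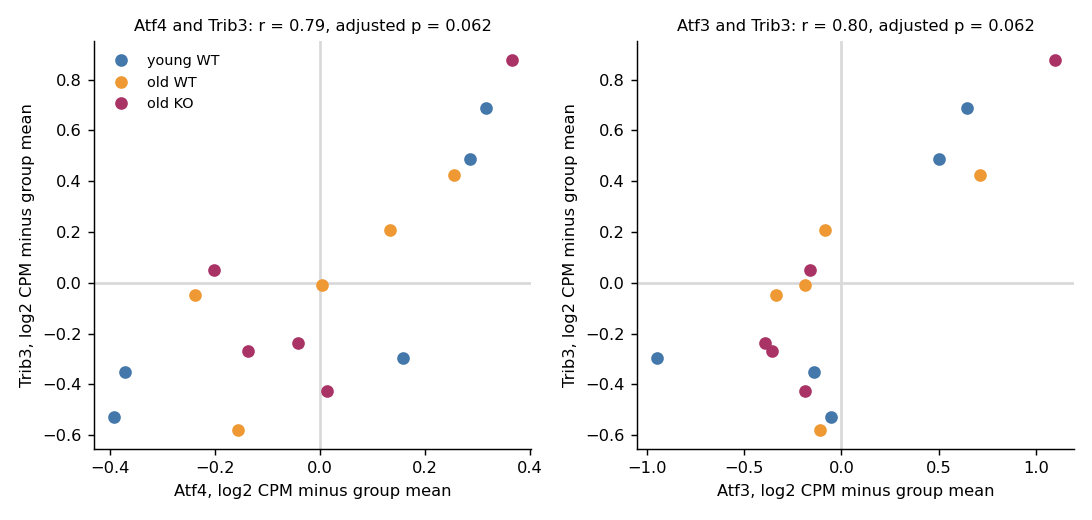
Log2 CPM of Trib3 against that of Atf4 (left) and Atf3 (right) in 15 livers, each with the mean of its group subtracted, coloured by group. The r was 0.79 for Atf4 and 0.80 for Atf3 (rho 0.72 and 0.52) in these livers. The adjusted permutation p of r was 0.0625 for both, so neither pair passed the threshold.

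The genes whose log2 CPM followed each gene most closely over the 15 livers, group differences included, are given as a description. They were sought among tested genes with a mean of at least 1 CPM. Nr4a1 (r = 0.94), Avl9 (0.89) and Plk3 (0.85) were most like Atf3, and Zbtb10, Mfsd4 and Brd2 (0.93 each) were most like Trib3. Cep57 (0.87) and Cbfa2t2 (0.83) were among those most like Atf4. The ribosomal protein genes Rpl23 (0.85) and Rpl14 (0.82), with 1700029J07Rik (0.81), were most like Ddit3. Polr1d (0.89), Hadhb (0.88) and Lgals4 (0.88) were most like Atf5, and Chic2, Dnmbp and Pim3 (0.82, 0.81 and 0.81) were most like Sesn2. Of the scarce genes, Chac1 was followed by Eda, Irf2bp2 and Errfi1 (0.72, 0.71 and 0.71) and Asns by Sestd1, Abi2 and Wdr92 (0.89, 0.88 and 0.88). Psat1 was followed by C030048B08Rik, Aatf and Pacrgl (0.86, 0.84 and 0.82). Old WT liver 7 held 82 of the 196 Asns counts, and r for Asns without that liver was not determined.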

How the data were processed

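RNA of 15 whole livers was sequenced, 5 per group, with groups and replicate numbers from the titles. The authors aligned the single-end reads of strand-specific poly(A) libraries to mm9 (TopHat2 2.0.11) and used HTSeq for counting. The deposited table holds unscaled counts, 1 column a liver. The annotation release and strand setting are not given in the sources used here, so overlapping genes are uncertain. Poly(A) selection leaves out RNA without a tail.

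Counts were scaled by TMM and tested with edgeR 4.0.16 (R 4.3.3, filterByExpr, glmQLFit and glmQLFTest, all 15 libraries in 1 fit), and 14258 genes were tested. Age is old WT minus young WT and genotype is old KO minus old WT, and both use the old WT livers. P-values were adjusted by Benjamini-Hochberg over all tested genes. DESeq2 1.42.0, limma 3.58.1 (voom), other scalings, filters and left-out libraries were alternatives. On simulated counts for the age contrast over 14105 genes, 35.8% of 1.5-fold, 80.6% of 2-fold and 98.5% of 4-fold changes were recovered. The changed genes in it were drawn from those with a mean above 1 CPM. It therefore says nothing about genes as scarce as Asns, Psat1 and Chac1, or about the genotype contrast. Phgdh was tested by exact permutation of log2(CPM + 0.1). Correlations used 100000 shuffles within groups. Near-identical stretches were sought with at least 96% identity over 50 bases. Positions come from GENCODE M1 on NCBIM37 (mm9) and promoters from RefSeq on GRCm38.p6.

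Members and lists were chosen with earlier results of these data known. Named genes were the 10 members, Rps6kb1, 7 pathway genes in any case, and in each list those past the threshold for age or genotype, or the 2 largest rises and 2 largest falls where a list had more than 4. For each tested member the 3 genes of at least 1 CPM with the highest Pearson r were also named. One gene that this rule names is not reported here.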

Additional observations from a re-analysis of the deposited data

Results flagged for a closer look

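In each of the 30 groups of 5 livers formed by 10 genes and 3 groups, the gap between the highest or lowest liver and its neighbour was set against the whole range. In 5 of the 30 this share was above the 95% limit of 0.71 for 5 values. For normally distributed values chance gives such a flag in about 1 of 20 groups. CPM on a linear scale need not be so distributed, and the same livers serve every gene. The rate of flags by chance in these data was not determined.

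Asns in old WT liver 7 had the largest share, 0.930, with 3.01 CPM. Atf3 in the same liver gave 0.821, with 3.70 CPM. In old KO liver 2 Atf3 gave 0.904, with 2.65 CPM, and Trib3 gave 0.734, with 5.74 CPM. Psat1 in young WT liver 1 gave 0.774, with 1.53 CPM.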

How the results depend on the processing

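Rps6kb1 kept its call for genotype in all 23 alternatives, and the count of called members for genotype was 0 in each. Replicate numbers did not pair the livers (correlations of same-numbered livers -0.15 to 0.077, 9 pairs). The replicate block adds a term for each number. Young WT liver 3 and old WT livers 7 and 10 share their number with no other liver. In that fit these livers add nothing to the group differences, and its lost calls and turned signs are read with that limit. With the replicate block 0 members were called for age (Trib3 -0.53, adjusted p = 0.152), with 8 pathway genes and 899 genes in all in place of 23 and 2685, and for genotype 0 pathway genes and 6 genes in all in place of 1 and 76. The block reversed 10 uncalled values, to -0.21 (Ddit3), -2.23 (Asns), 0.24 (Sesn2) and -0.25 (Mthfd2) for age, -0.15 (Trib3), 0.31 (Asns), 0.16 (Psat1) and 0.0040 (Mthfd2) for genotype, and 0.087 (Atf4) and 0.31 (Chac1) for old KO against young WT. For genotype DESeq2 called 309 genes, 2 of them pathway genes, limma voom 23 and 0, and a fit on the 10 livers of the contrast 0 pathway genes. Limma voom reversed Asns for age (-1.02) and Chac1 for old KO against young WT (0.16).

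Leaving out 1 library gave 0 to 2 called members for age and for old KO against young WT, 14 to 25 pathway genes (fewest without old WT 1) and 1748 to 3284 genes in all (fewest without young WT 1) for age, and 0 to 1 pathway genes and 9 to 108 genes in all (fewest without old WT 4) for genotype. Uncalled values that turned sign ran from -0.19 to 0.22 (Atf3), -1.84 to 0.83 (Asns), -0.013 to 0.31 (Mthfd2) and -0.22 to 0.0024 (Ppp1r15a) for age. For genotype they ran from -0.014 to 0.16 (Atf4), -0.21 to 0.0050 (Atf5), -0.25 to 0.18 (Trib3), -2.50 to 0.23 (Asns), -0.55 to 0.11 (Psat1) and -0.45 to 0.0077 (Gdf15). For old KO against young WT they ran from -0.13 to 0.052 (Atf4) and -0.23 to 0.26 (Chac1). The causes were not tested.

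Counting error limits Asns, Psat1, Phgdh and Chac1, whose libraries hold at most 82 counts. Changes of 2-fold or less could be missed in any gene, and larger ones in these scarce genes. Larger ones could also be missed for genotype, where recovery was not simulated. The 95% interval of Atf3 for genotype, for example, reached -1.54 without a call. P-values measure the spread between these livers only.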
